A study of Mus musculus with 9 samples.

Results

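The proteasome is the protease complex that degrades proteins tagged with ubiquitin. Its core particle is a stack of rings, with outer alpha rings that gate the entry and inner beta rings that hold the cutting sites. A regulatory particle caps the core. Its base carries ATPases that unfold substrates, and its lid carries the enzyme that removes ubiquitin. Other activators can replace this cap, and dedicated chaperones assemble the particles. In the uterus, as in other tissues, the constitutive subunits are made by every cell type, while immunoproteasome subunits that replace the cutting subunits are known for their induction by interferon.

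The expression of 35 mouse genes of the constitutive proteasome was examined in whole uteri on gestation day (GD) 3.5, just before the embryo attaches, among 18193 genes that could be read on the same arrays. The genes were chosen by name: the 7 alpha subunits (Psma1 to Psma7), the 7 beta subunits (Psmb1 to Psmb7), the 6 ATPases of the base (Psmc1 to Psmc6), 3 other genes of the base, 8 genes of the lid, and 4 activator or assembly genes (Psme3, Psme4, Pomp and Psmd5). Each was read at 1 probe set, a group of short probes for one transcript, namely the one with the highest mean over the 9 arrays among those annotated to that gene alone. All 35 genes had such a probe set, and no filter on low values was applied.

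The study deleted Mig-6 (gene symbol Errfi1), which restrains ERBB receptors, with a Cre recombinase expressed from the progesterone receptor gene Pgr, so that deletion is limited to cells that use this gene. With 3 arrays each, the groups were a double knockout (Mig-6 d/d Erbb2 d/d, with both genes floxed and Pgr cre/+), a single knockout (Mig-6 d/d, Pgr cre/+ with only Mig-6 floxed) and a control without Cre. The controls carried floxed Mig-6 alone or floxed Mig-6 and floxed Erbb2, and the sources used here do not tell which control array had which genotype. The females had been mated with C57BL/6 males. They carried a mixed strain background, and the labels give an age of 2 weeks where the methods describe adult mice. RNA was a pool of several mice per genotype. The sources do not tell whether each array had its own pool, so the spread behind the p-values may be technical alone.

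Errfi1 checks the labels. Its probe set read 76.05, 29.8 and 40.3 in the double knockout, 15.1, 15.96 and 255 in the arrays labelled Mig-6 d/d, and 454, 564.5 and 286 in control. The array labelled Mig-6 d/d replicate 3 therefore lay near the control level of the deleted gene. For the 35 proteasome genes together, the main counts, the median and the number past the test in comparisons with that group are given also without it. For single sets of subunits and for further probe sets this is done only in part. Erbb2 read 18.3, 9.88 and 18.4 in the double knockout, 46.5, 39.5 and 44.5 in the arrays labelled Mig-6 d/d, and 29.4, 36.7 and 45.7 in control. Whether these probe sets lie in the deleted exons is not stated. The array medians were 7.87 to 8.24 on a linear intensity scale, on which the 35 genes had means of 34.6 to 1043 over the 9 arrays. Precision is limited by the number of arrays, and signal over background was not judged.

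Below, log2 fold changes are differences between group means of log2 intensity, and a gene is said to have risen or fallen where its Benjamini-Hochberg adjusted p over all 45037 probe sets was under 0.05 in limma. Genes that also changed by more than 1.5-fold are counted separately.

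The 5 genes that passed the test in any comparison were Psma1, Psma7, Psmb5, Psmd14 and Psme3. Their promoters are shown because these genes carry the calls described below. Each sequence is the 250 bases before the annotated start of transcription in RefSeq (GRCm38.p6), written 5′ to 3′ on the gene's own strand, with the letters of every motif searched in capitals.
Psma1, chr7:114276117-114276366, minus strand: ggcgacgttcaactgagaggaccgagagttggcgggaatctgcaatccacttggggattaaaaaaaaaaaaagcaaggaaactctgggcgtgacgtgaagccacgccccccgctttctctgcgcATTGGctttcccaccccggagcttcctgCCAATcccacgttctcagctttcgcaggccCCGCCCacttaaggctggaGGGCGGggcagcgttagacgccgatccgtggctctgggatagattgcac
Psma7, chr2:180042465-180042714, minus strand: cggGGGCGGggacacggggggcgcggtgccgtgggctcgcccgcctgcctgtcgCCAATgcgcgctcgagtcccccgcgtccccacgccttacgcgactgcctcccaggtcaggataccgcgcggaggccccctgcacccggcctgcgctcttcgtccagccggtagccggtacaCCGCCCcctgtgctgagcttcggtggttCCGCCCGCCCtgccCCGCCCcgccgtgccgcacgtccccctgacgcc
Psmb5, chr14:54617996-54618245, minus strand: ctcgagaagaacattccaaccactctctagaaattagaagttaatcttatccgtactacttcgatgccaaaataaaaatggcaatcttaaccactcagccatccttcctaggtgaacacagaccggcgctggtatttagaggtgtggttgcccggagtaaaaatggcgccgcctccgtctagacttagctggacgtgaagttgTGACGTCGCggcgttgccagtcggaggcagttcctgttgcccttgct
Psmd14, chr2:61711444-61711693, plus strand: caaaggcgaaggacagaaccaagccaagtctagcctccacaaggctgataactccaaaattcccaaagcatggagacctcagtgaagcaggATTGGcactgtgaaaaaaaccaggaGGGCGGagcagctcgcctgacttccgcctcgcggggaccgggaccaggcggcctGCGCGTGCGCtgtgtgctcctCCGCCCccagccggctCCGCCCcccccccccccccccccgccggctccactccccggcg
Psme3, chr11:101315963-101316212, plus strand: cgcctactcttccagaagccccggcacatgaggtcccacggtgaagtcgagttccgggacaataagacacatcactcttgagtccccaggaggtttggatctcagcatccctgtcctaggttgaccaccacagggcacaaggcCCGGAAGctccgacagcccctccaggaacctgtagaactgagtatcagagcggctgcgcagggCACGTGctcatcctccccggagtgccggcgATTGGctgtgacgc

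The motifs searched, on both strands, were the CCAAT box (CCAAT), the GC box (GGGCGG), an ETS motif (CCGGAAG), the core of the antioxidant response element (TGACNNNGC), an E-box (CACGTG) and the motif of NRF1 (GCGC, any base, TGCGC). NRF1 here means nuclear respiratory factor 1, a factor other than the Nfe2l1 named further below. Psma1 had 2 CCAAT boxes and 2 GC boxes. Psma7 had 1 CCAAT box and 5 GC boxes, of which 2 overlapped. Psmb5 had 1 antioxidant response element core, 47 bases before the start, and no other match. In Psmd14 the search found 1 NRF1 motif, 1 CCAAT box and 3 GC boxes, and in Psme3 1 ETS motif, 1 E-box and 1 CCAAT box. No motif was shared by all 5 promoters. These matches are of letters alone, and no binding was measured.

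Of the 35 genes, 29 had a promoter in the RefSeq table, and Psmb1, Psmb2, Psmb7, Psmc3, Psmd3 and Psmd7 were not matched. An ETS motif was present in 12 of the 29 genes (41.4%), against 11.8% of 14452 measured genes with a promoter in the table and 6.91% of all 32851 promoters. The NRF1 motif was present in 6 of the 29 (20.7%), against 7.0% of measured genes and 3.74% of all promoters. For the other motifs the share among the proteasome genes and the share among measured genes were closer to each other. These were 58.6% and 53.4% for the GC box (32.7% of all promoters), 37.9% and 39.4% for the CCAAT box (33.8%), 13.8% and 13.5% for the antioxidant response element core (10.2%), and 6.9% and 8.73% for the E-box (6.02%). The ETS motif was in the promoters of Pomp, Psma6, Psmc1, Psmc2, Psmc6, Psmd2, Psmd4, Psmd6, Psmd11, Psmd12, Psme3 and Psme4, so that only 1 of the 5 genes printed above had it.

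In the uteri labelled Mig-6 d/d, the proteasome genes lay slightly and broadly above control. Of the 35 genes, 33 had a higher mean log2 intensity in the arrays labelled Mig-6 d/d than in control, with a median log2 fold change of 0.26 and a range of -0.29 to 0.60. Over all 18193 genes, 44.8% were higher and the median was -0.03. Among the 859 genes at least as bright as the median proteasome gene, 53.8% were higher and the median was 0.03. Without the array labelled Mig-6 d/d replicate 3, 33 genes were again higher and the median was 0.25.

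Few of these differences passed the test singly. Psma1, Psmb5, Psmd14 and Psme3 rose, which is 4 of 35 genes (11.4%), and none fell, where 3.00% of all genes rose and 2.47% fell. Psme3 alone changed by more than 1.5-fold, and 1 of 35 (2.86%) is close to the 2.54% of all genes that rose by more than 1.5-fold (1.80% fell by as much). At an unadjusted p under 0.05, 18 genes (51.4%) were higher and 0 lower, where 11.2% of all genes were higher and 12.7% lower. For 19 of the 35 genes (54.3%) all 3 arrays labelled Mig-6 d/d lay above all 3 control arrays, against 11.6% of all genes, and for none did they lie below, against 14.1% of all genes. Of the 859 genes at least as bright as the median proteasome gene, 157 lay wholly above control and 138 wholly below. At an unadjusted p under 0.05, 137 of these 859 genes were higher and 134 lower (limma). None of the 35 genes passed the test without the array labelled Mig-6 d/d replicate 3 (limma). Few of all genes passed it in that fit either, where 143 of 18193 rose and 124 fell. In that fit 13 of the 35 were higher at an unadjusted p under 0.05, against 9.60% of all genes, and 22 had arrays wholly above control, against 15.1% of all genes.

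**Figure D1:**
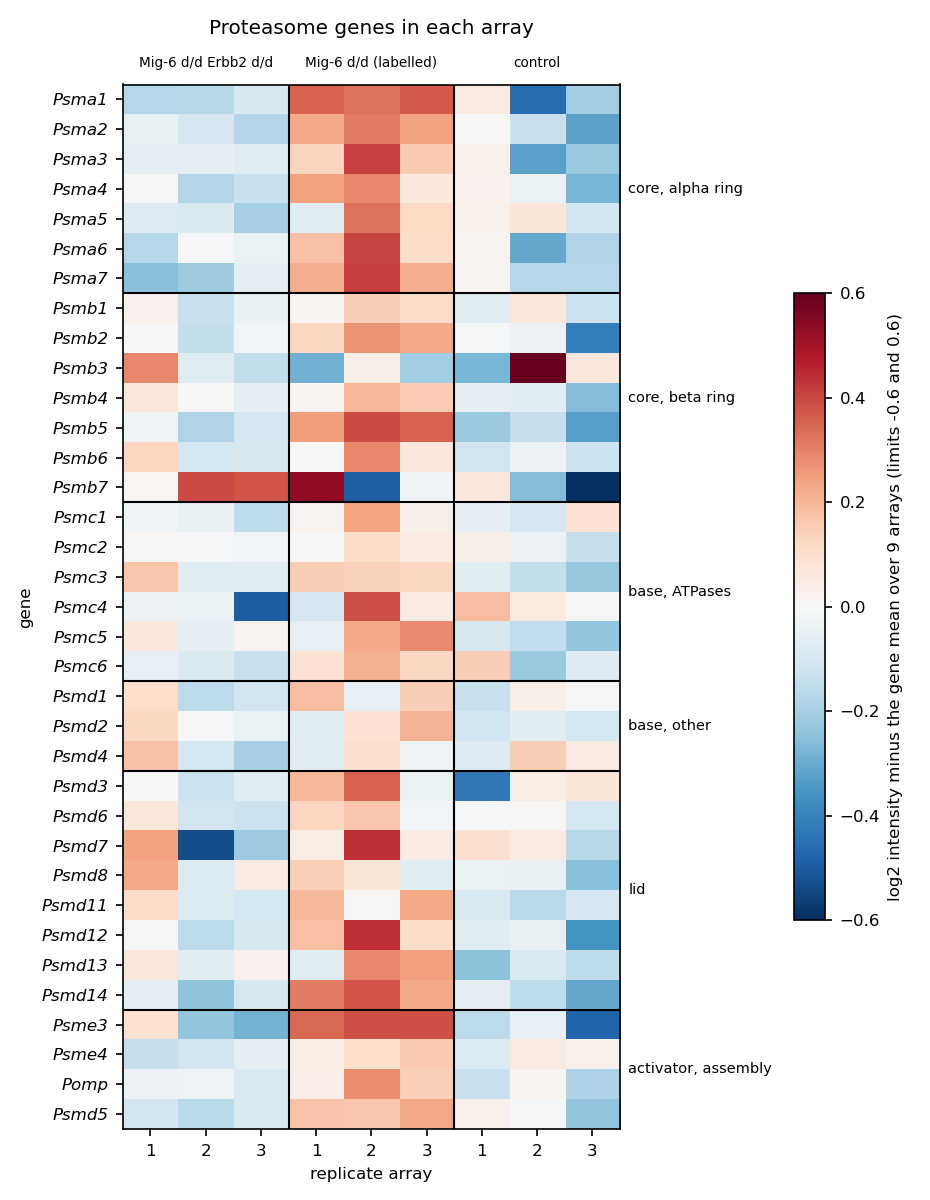
Log2 intensity of each of the 35 proteasome genes (rows, grouped by role) in each of the 9 arrays (columns, 3 per group), minus the gene's mean over the 9 arrays; red is above and blue below that mean. The middle block, the arrays labelled Mig-6 d/d, is mostly red, with replicate 2 the highest of all arrays for 22 of the 35 genes.

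The alpha genes had the highest median of the 6 sets of subunits. All 7 alpha genes were higher in the arrays labelled Mig-6 d/d than in control, by 0.12 to 0.55 on the log2 scale with a median of 0.39, and for 6 of them the arrays of the groups did not overlap. Without the array labelled Mig-6 d/d replicate 3 the median was 0.42 for the alpha genes, and it was 0.24 for the beta genes, 0.18 for the ATPases, 0.10 for the other base genes, 0.26 for the lid and 0.25 for the activator and assembly genes. Psma1 read 603, 591 and 609 in the arrays labelled Mig-6 d/d and 491, 344 and 409 in control (601 ± 9.01 and 414 ± 73.6, SD, n = 3 each). All 3 arrays of the first group were above all control arrays, and Psma1 rose by 0.55 in log2 terms (SE 0.12, adjusted p = 0.041, limma). The call was lost without control replicate 2, without control replicate 3 or without any one of the arrays labelled Mig-6 d/d (adjusted p 0.0807 to 0.12, limma). It was also lost with only the 6 arrays compared (adjusted p = 0.0983), with log2(intensity + 16) (0.0619) and with the mean over the probe sets of the gene, where the log2 fold change was 0.16 (0.253, limma). The other probe sets in that mean had mean intensities of 9.16, 5.60 and 3.68, against 481 for the one used here. Psma7, another alpha subunit, read 522, 599 and 523 in the arrays labelled Mig-6 d/d and 454, 399.6 and 399.6 in control, again without overlap (log2 fold change 0.39, SE 0.10, adjusted p = 0.0722, limma).

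Among the beta genes, 6 of 7 were higher in the arrays labelled Mig-6 d/d, with a median of 0.25. Psmb5, Psmb6 and Psmb7 encode the subunits with cutting sites. Psmb5, with the chymotrypsin-like site, read 683, 754 and 733 in the arrays labelled Mig-6 d/d and 491, 522 and 456 in control (723 ± 36.2 and 489.9 ± 32.9, SD, n = 3 each). The groups were well apart, and Psmb5 rose by 0.56 in log2 terms (SE 0.10, adjusted p = 0.0164, limma). Of 16 alternative settings, the call was lost only on leaving out the array labelled Mig-6 d/d replicate 3 (log2 fold change 0.55, adjusted p = 0.0616, limma).

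The other cutting subunits did not pass the test. Psmb6, with the caspase-like site, read 605, 740.2 and 635 in the arrays labelled Mig-6 d/d and 561, 591 and 554 in control (log2 fold change 0.21, SE 0.11, adjusted p = 0.357, limma). These arrays did not overlap either. Psmb7, with the trypsin-like site, read 206, 101 and 140.2 in the arrays labelled Mig-6 d/d and 149, 119 and 93.4 in control, and here the groups overlapped widely (log2 fold change 0.28, 95% interval -0.28 to 0.83). Psmb3, a structural beta subunit, had the lowest value of the 35 genes. It read 512, 640.5 and 541 in the arrays labelled Mig-6 d/d and 517, 946 and 656 in control, where replicate 2 stood far above the others (log2 fold change -0.29, 95% interval -0.74 to 0.17). At the second bright probe set of Psmb3 the log2 fold change was 0.02. Psmb1, the brightest of the 35 genes, read 1054, 1153 and 1129 in the arrays labelled Mig-6 d/d and 991, 1092 and 953 in control, with overlap (log2 fold change 0.14, 95% interval -0.07 to 0.35).

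The base of the regulatory particle differed least. The 6 ATPase genes were all higher in the arrays labelled Mig-6 d/d, but by a median of only 0.16 and with non-overlapping arrays for 2 of them (Psmc3 and Psmc5). Psmc4 read 673, 945 and 747 there and 819, 751 and 716 in control, with overlap (log2 fold change 0.04, 95% interval -0.32 to 0.39). The 3 other base genes had a median of 0.13. One of them, Psmd4, which encodes a ubiquitin receptor, read 426, 476 and 437 in the arrays labelled Mig-6 d/d and 423, 494 and 463 in control (log2 fold change -0.04, 95% interval -0.30 to 0.22). A second probe set of Psmd4 gave 0.26.

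In the lid, all 8 genes were higher in the arrays labelled Mig-6 d/d, with a median of 0.27. Psmd14, the lid's ubiquitin-removing enzyme, read 692, 727 and 656 in these libraries and 538, 504 and 454 in control (692 ± 35.1 and 499 ± 42.7, SD, n = 3 each). The groups did not overlap, and Psmd14 rose by 0.47 in log2 terms (SE 0.10, adjusted p = 0.0361, limma). The call did not hold without control replicate 2, control replicate 3 or any one of the arrays labelled Mig-6 d/d (adjusted p 0.0818 to 0.101, limma), or with only the 6 arrays compared (0.0763). Psmd7, which pairs with Psmd14 in the lid, read 122, 159.8 and 122 in the arrays labelled Mig-6 d/d and 126, 122 and 105 in control, with overlap (log2 fold change 0.19, adjusted p = 0.683, limma). Psmd8, a further lid subunit, read 386, 367 and 332 in the arrays labelled Mig-6 d/d and 341, 339 and 294 in control, again with overlap (log2 fold change 0.16, adjusted p = 0.537, limma).

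All 4 activator and assembly genes were higher, with a median of 0.26. Psme3, which encodes an activator that caps the core in the nucleus, was the dimmest of the 35 genes. It read 42.9, 44.2 and 44.3 in the arrays labelled Mig-6 d/d and 30.3, 32.6 and 24.2 in control (43.8 ± 0.786 and 29.1 ± 4.36, SD, n = 3 each). Without overlap between the groups, Psme3 rose 1.52-fold (log2 fold change 0.60, SE 0.14, adjusted p = 0.0421, limma), and the call was lost on leaving out any one of the 6 arrays (adjusted p 0.0521 to 0.12, limma). It was also lost with a trended and robust variance (adjusted p = 0.0575), with only the 6 arrays compared (0.0685), with log2(intensity + 16), where the log2 fold change was 0.41 (0.0653), and with the mean over the probe sets of Psme3, where it was 0.27 (0.164, limma). The other probe sets of Psme3 had mean intensities of 9.01 and 5.32, against 34.6 for the one used here. Pomp, the chaperone that matures the core, and Psmd5, a chaperone of the base, did not pass the test, with log2 fold changes of 0.25 and 0.26 and arrays that did not overlap.

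**Figure D2:**
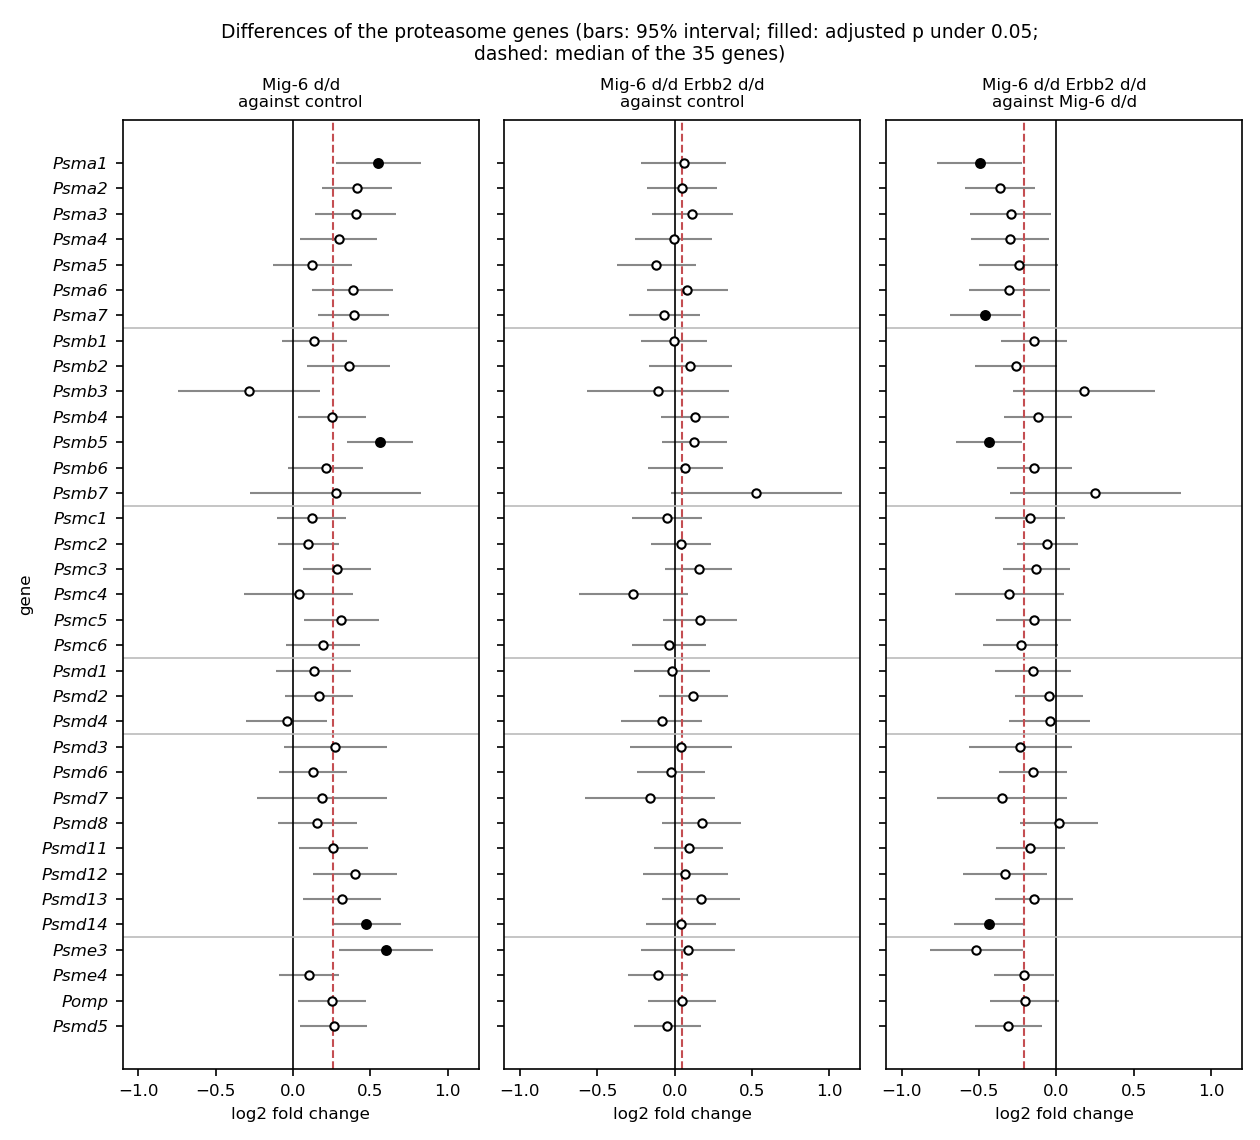
Log2 fold change of each of the 35 proteasome genes in the 3 comparisons, with 95% intervals as grey lines, filled points where the adjusted p was under 0.05 and a dashed line at the median. The dashed line lies at 0.26 for Mig-6 d/d against control, at 0.05 for the double knockout against control and at -0.21 for the double knockout relative to Mig-6 d/d.

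In the double knockout the proteasome genes lay close to control. Against control, 21 of the 35 genes were higher and 14 lower, with a median log2 fold change of 0.05, where 52.7% of all genes were higher and the median was 0.01. None of the 35 passed the test (limma) in a comparison in which 0.407% of all genes passed it with or without the limit of 1.5-fold. None had an unadjusted p under 0.05, where 4.25% of all genes were higher and 3.70% lower at that level. The arrays were apart for 4 genes. Psmc5, Psmd2 and Psmd13 lay above control, as did 6.54% of all genes, and Psmc4 lay below, as did 5.30% of all genes. Without control replicate 3 the median was -0.01 and 16 genes were higher.

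The genes that rose in Mig-6 d/d had small differences from control in the double knockout. Since the RNA was pooled, their 95% intervals may cover technical spread alone. Psma1 had a log2 fold change of 0.06 there (95% interval -0.22 to 0.33), Psmb5 of 0.13 (-0.08 to 0.34), Psmd14 of 0.04 (-0.19 to 0.26) and Psme3 of 0.09 (-0.22 to 0.39). In Mig-6 d/d against the same control arrays the values of these genes were 0.55, 0.56, 0.47 and 0.60. The genes were picked by the test on those values, which favours large ones. The largest value was that of Psmb7, which read 143, 186 and 184 in the double knockout and 149, 119 and 93.4 in control (log2 fold change 0.53, 95% interval -0.03 to 1.08). Psmd8 followed with 409, 329.8 and 361 in the double knockout and 341, 339 and 294 in control (log2 fold change 0.17, 95% interval -0.08 to 0.43), where the arrays overlapped. At the low end, Psmc4 read 704, 702 and 511 in the double knockout and 819, 751 and 716 in control (log2 fold change -0.27, 95% interval -0.62 to 0.08) without overlap, and Psmd7 read 139, 81.4 and 101 in the double knockout and 126, 122 and 105 in control (log2 fold change -0.16, 95% interval -0.58 to 0.26).

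Set against Mig-6 d/d directly, the double knockout had lower values for most of the genes. This comparison uses the same arrays labelled Mig-6 d/d as the one against control, so that a high value in those arrays enters both. Of the 35 genes, 32 were lower in the double knockout and 3 were higher (Psmb3, Psmb7 and Psmd8), with a median log2 fold change of -0.21, where the median of all genes was 0.03 and 56.2% of them were higher. Psma1, Psma7, Psmb5 and Psmd14 fell, which is 4 of 35 (11.4%), and none rose, where 4.45% of all genes fell and 5.14% rose. At the probe sets used, no gene of the 35 changed by more than 1.5-fold at that threshold in limma, against 3.75% of all genes that fell and 3.73% that rose by as much. An unused probe set of Psme4 did, as given at the end. At an unadjusted p under 0.05, 12 genes (34.3%) were lower and 0 higher, where 11.8% of all genes were lower and 14.7% higher (limma). For 17 genes (48.6%) all arrays of the double knockout lay below all arrays labelled Mig-6 d/d, against 14.2% of all genes, and for none did they lie above, against 18.6% of all genes. Of the 859 genes at least as bright as the median proteasome gene, 174 lay wholly below Mig-6 d/d and 179 wholly above. At an unadjusted p under 0.05, 121 of these 859 genes were lower and 143 higher (limma). Without the array labelled Mig-6 d/d replicate 3, 32 of the 35 genes were lower, the median was -0.21 and none of the 35 passed the test (limma). Few of all genes passed it in that fit either, where 407 of 18193 fell and 491 rose. In that fit 11 of the 35 were lower at an unadjusted p under 0.05, against 10.2% of all genes, and 19 had arrays wholly below Mig-6 d/d, against 17.6% of all genes.

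All 7 alpha genes were lower in the double knockout than in the arrays labelled Mig-6 d/d without overlap, with a median log2 fold change of -0.30. Psma1 read 419, 420.1 and 442 in the double knockout (427 ± 12.9, SD, n = 3) and fell by 0.49 in log2 terms relative to the arrays labelled Mig-6 d/d (standard error 0.12, adjusted p = 0.0415, limma). Psma7 read 378, 387 and 431 in the double knockout (399 ± 28.4, SD, n = 3) and fell by 0.46 (SE 0.10, adjusted p = 0.0284, limma). Both lay within or below the range of the control arrays. The call was lost for Psma1 when any one of the 6 arrays was left out (adjusted p 0.0835 to 0.123, limma), and for Psma7 without any one of 5 of them, all but double-knockout replicate 3 (adjusted p 0.0651 to 0.102, limma). Other settings that lost a call were log2(intensity + 16) and the mean over the probe sets for Psma1, with values of -0.48 and -0.18 in log2 terms (adjusted p = 0.057 and 0.176, limma), and the replicate number as a block for Psma7 (adjusted p = 0.0543, limma).

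Psmb5 read 565, 506 and 535 in the double knockout (535 ± 29.4, SD, n = 3) and fell by 0.44 in log2 terms relative to the arrays labelled Mig-6 d/d (standard error 0.10, adjusted p = 0.0245, limma). Psmd14 read 538, 475 and 524 in the double knockout (512 ± 33.2, SD, n = 3) and fell by 0.43 (SE 0.10, adjusted p = 0.0313, limma). For these genes, too, every array of the double knockout was below every array labelled Mig-6 d/d. Both calls were lost on leaving out any one of the 6 arrays (adjusted p 0.0514 to 0.0919 for Psmb5 and 0.0657 to 0.115 for Psmd14, limma). Psme3 read 36.0, 28.7 and 27.8 in the double knockout, below all arrays labelled Mig-6 d/d, and narrowly missed the threshold (log2 fold change -0.52, SE 0.14, adjusted p = 0.0509, limma).

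The other groups of subunits had smaller medians between the double knockout and Mig-6 d/d. These were -0.14 for the beta genes, -0.16 for the ATPases, -0.05 for the other base genes, -0.20 for the lid and -0.26 for the activator and assembly genes. In the same order they were -0.13, -0.17, -0.06, -0.27 and -0.25 without the array labelled Mig-6 d/d replicate 3. For the alpha genes the median was then -0.37. The genes that lay above Mig-6 d/d were Psmb7 with a log2 fold change of 0.25 (95% interval -0.30 to 0.80), Psmb3 with 0.18 (95% interval -0.28 to 0.64) and Psmd8 with 0.02 (95% interval -0.24 to 0.27). For each of them the arrays of the groups overlapped.

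**Figure D3:**
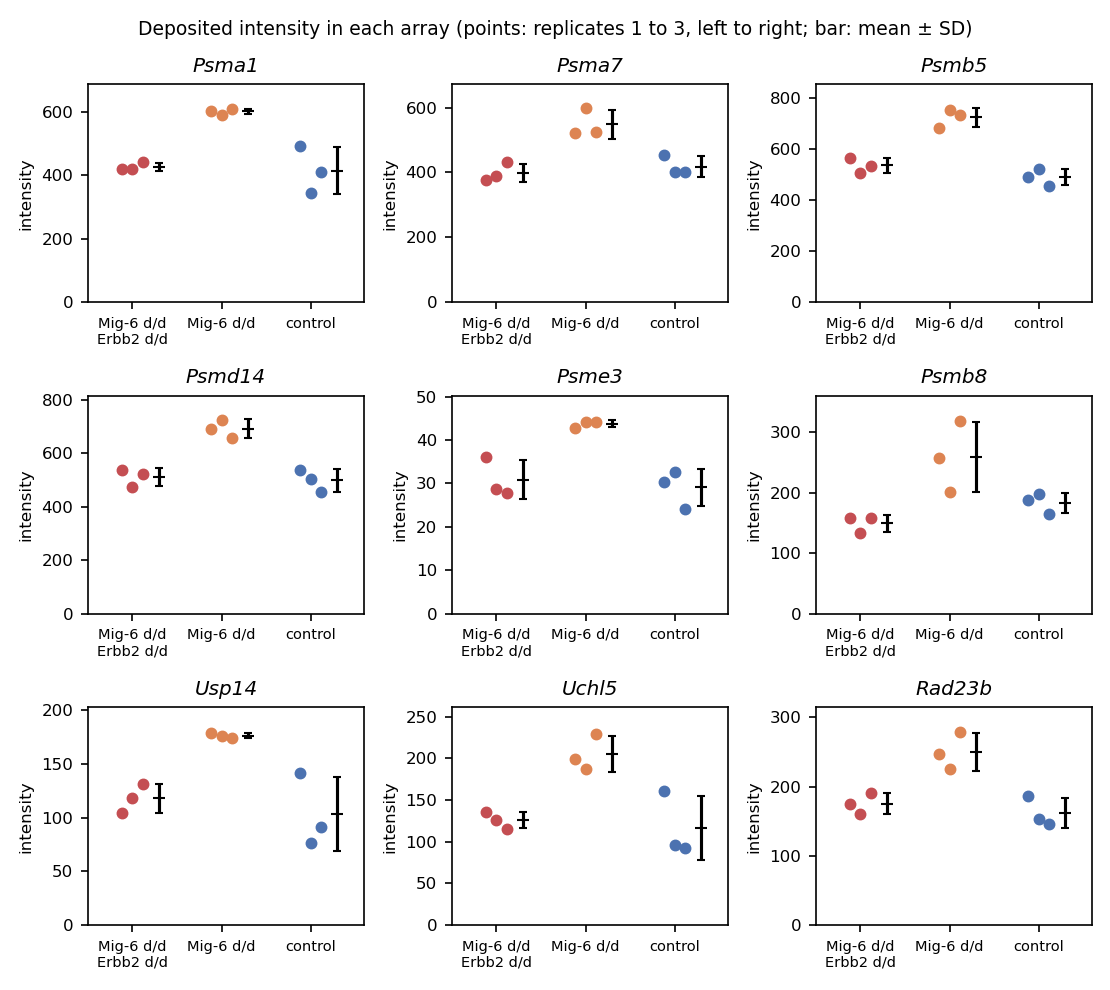
Deposited intensity on a linear scale from 0 for the 5 proteasome genes that passed the test and 4 related genes, in each array (points, replicates 1 to 3 from left to right) with the mean and SD of the group beside them. In each panel the 3 arrays labelled Mig-6 d/d lie above the double knockout and control, with Psmb8 between 202 and 318 in these libraries and between 133 and 158 in the double knockout.

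Many of the genes had further probe sets, which the choice of 1 probe set per gene did not use. There were 78 probe sets for the 35 genes, and 25 of them had a mean intensity under 16. Of the remaining unused ones, 13 probe sets of 11 genes had a mean of at least 100. All 13 were higher in the arrays labelled Mig-6 d/d than in control, with a median log2 fold change of 0.26, and all 13 were lower in the double knockout than in Mig-6 d/d, with a median of -0.26. They read the same RNA as the probe sets above and are no separate samples.

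The arrays of a group were not alike. The median deviation of the 35 genes from their means over all arrays was 0.01, -0.10 and -0.10 in the double knockout, 0.13, 0.27 and 0.13 in the arrays labelled Mig-6 d/d, and -0.06, -0.04 and -0.17 in control. Replicate 2 of the arrays labelled Mig-6 d/d was the highest of the 9 arrays for 22 of the 35 genes, where it was the highest for 12.6% of all genes. Control replicate 3 was the lowest for 16 of the 35, where it was the lowest for 12.5% of all genes. Without replicate 2 of the arrays labelled Mig-6 d/d the median against control was 0.21, and without control replicate 3 it was 0.19.

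Markers of cell types moved with the groups. In bulk tissue, fewer cells of a type and less RNA per cell cannot be told apart. All 13 measured epithelial markers were higher in the arrays labelled Mig-6 d/d than in control, with a median log2 fold change of 1.44. Of these, 7 were past the test and the limit of 1.5-fold, where 2.54% of all genes rose by as much. Their summed intensity was 2836 to 3992 in the double knockout, 8218 to 12291 in the arrays labelled Mig-6 d/d, against 3112 to 5596 in control. All 12 stromal, all 8 smooth muscle and all 8 endothelial markers were lower in the arrays labelled Mig-6 d/d than in control, with medians of -0.46, -0.62 and -0.67. Without the array labelled Mig-6 d/d replicate 3 every one of these markers kept its direction, with medians of 1.30 for epithelium, -0.42 for stroma, -0.75 for smooth muscle and -0.73 for endothelium. In that fit 2 epithelial markers rose, where 143 of 18193 genes did. The summed stromal intensity was 28164 to 29308 in the double knockout, 20748 to 24812 in the arrays labelled Mig-6 d/d, against 24749.7 to 29246 in control. For smooth muscle the sum was 16234 to 19892 in the double knockout, 9069.6 to 12544 in the arrays labelled Mig-6 d/d, against 13634 to 17834 in control. The summed endothelial intensity was 827 to 1036 in the double knockout, 537 to 668 in the arrays labelled Mig-6 d/d, against 918 to 1035 in control. The 9 leukocyte markers showed no common direction, with 5 higher and 4 lower. Among them Csf1r fell by more than 1.5-fold in Mig-6 d/d against control (log2 fold change -0.67, adjusted p = 0.0326, limma), as did 1.80% of all genes. Without the array labelled Mig-6 d/d replicate 3 it had -0.58 (adjusted p = 0.108, limma). Itgam and S100a8 read below the median of every array. The 4 measured erythroid markers summed to 15.4 to 21.8 in every array. No value in the table was 0, and the lowest was 2.11. The share of these shifts in the proteasome values was not tested.

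Within the groups the proteasome genes and the epithelial markers did not run together. The array labelled Mig-6 d/d replicate 2 had the highest proteasome median and the lowest epithelial sum of its group (8218, against 10767 in replicate 1 and 12291 in replicate 3). Control replicate 3 had the lowest proteasome median and the highest epithelial sum of its group (5596, against 3378 and 3112). In the double knockout, replicate 1 had the highest proteasome median and the lowest epithelial sum (2836, against 3394 and 3992). Between the groups, both were highest in the arrays labelled Mig-6 d/d. With 3 arrays per group this is a description of these arrays, and its bearing on the difference between the groups was not tested.

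**Figure D4:**
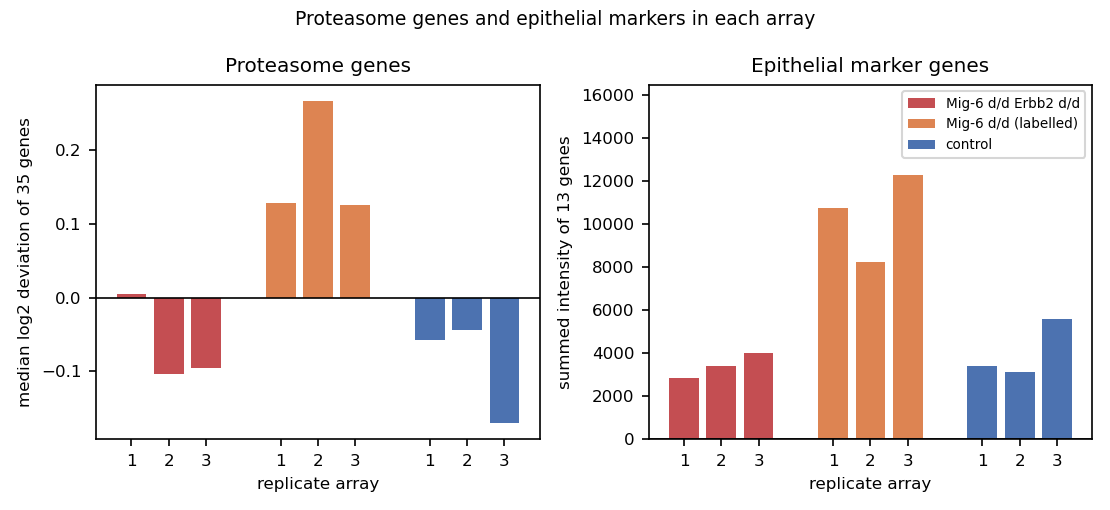
Median log2 deviation of the 35 proteasome genes (left) and summed intensity of 13 epithelial marker genes (right) in each of the 9 arrays, coloured by group. Both are highest in the arrays labelled Mig-6 d/d. Within that group, replicate 2 has the tallest proteasome bar, 0.27, and the shortest epithelial bar, 8218.

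The immunoproteasome, which carries other cutting subunits in the same core, was read at 4 of 5 listed genes: Psmb8, Psmb9 and Psmb10 and the activator gene Psme1. All 4 were higher in the arrays labelled Mig-6 d/d than in control, with a median log2 fold change of 0.31, and none passed the test (limma). At an unadjusted p under 0.05, 2 of the 4 were higher, where 11.2% of all genes were (limma). Their median was 0.22 without the array labelled Mig-6 d/d replicate 3. Psmb8, which takes the place of Psmb5, read 158, 133 and 158 in the double knockout, 258, 202 and 318 in the arrays labelled Mig-6 d/d, and 187, 198 and 165 in control. The double knockout was below both other groups without overlap, and Psmb8 fell by 0.78 in log2 terms relative to the arrays labelled Mig-6 d/d (standard error 0.16, adjusted p = 0.0199, limma). Against control it was not past the threshold in Mig-6 d/d (log2 fold change 0.48, adjusted p = 0.136, limma). The call was lost when any one of 4 of the 6 arrays was left out, the arrays labelled Mig-6 d/d replicates 1 and 3 and double-knockout replicates 1 and 2 (adjusted p 0.0562 to 0.0758, limma). The summed intensity of these 4 genes was 1291, 1048 and 1439 in the arrays labelled Mig-6 d/d, so that replicate 2, the highest array for the constitutive subunits, was the lowest of its group here.

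Of 9 listed genes for ubiquitin receptors, deubiquitinating enzymes and shuttle factors that work with the proteasome, 7 were measured. All 7 were higher in the arrays labelled Mig-6 d/d than in control, with a median log2 fold change of 0.23. Of these, 3 rose by more than 1.5-fold, where 2.54% of all genes did. They were the deubiquitinating enzymes Usp14 and Uchl5 and the shuttle factor Rad23b. Without the array labelled Mig-6 d/d replicate 3 all 7 were again higher and the median was 0.23. None of the 7 then passed the test (limma), where 143 of 18193 genes rose. Usp14 read 104, 118 and 132 in the double knockout, 179, 176 and 174 in the arrays labelled Mig-6 d/d, and 142, 76.4 and 91.4 in control. It rose 1.77-fold in Mig-6 d/d (log2 fold change 0.82, SE 0.19, adjusted p = 0.0491, limma). Uchl5 read 136, 126 and 116 in the double knockout, 199, 187 and 229.6 in the arrays labelled Mig-6 d/d, and 161, 96.0 and 92.4 in control. It rose 1.82-fold (log2 fold change 0.86, SE 0.19, adjusted p = 0.0413, limma).

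For both, control replicate 1 lay well above the other control arrays, and the arrays labelled Mig-6 d/d lay above all others. Both calls were lost without control replicate 2, without control replicate 3 or without any one of the arrays labelled Mig-6 d/d (adjusted p 0.104 to 0.14 for Usp14 and 0.0651 to 0.137 for Uchl5, limma). Both were lost, too, with only the 6 arrays compared (adjusted p = 0.103 for Usp14 and 0.0962 for Uchl5) and with log2(intensity + 16) (0.102 for Usp14 and 0.0901 for Uchl5, limma). For Usp14 this also held with the replicate number as a block (adjusted p = 0.0621) and with the mean over its probe sets, where the log2 fold change was 0.29 (0.175, limma). In the double knockout relative to Mig-6 d/d, the log2 fold changes were -0.59 for Usp14 and -0.70 for Uchl5 and did not pass the threshold (adjusted p = 0.11 and 0.0589, limma).

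Rad23b, which carries tagged proteins to the proteasome, read 175, 160.1 and 191 in the double knockout, 247, 225 and 279 in the arrays labelled Mig-6 d/d, and 187, 153 and 146 in control. It rose 1.55-fold in Mig-6 d/d (log2 fold change 0.63, SE 0.13, adjusted p = 0.0307, limma) and fell by 0.51 in the double knockout relative to the arrays labelled Mig-6 d/d (standard error 0.13, adjusted p = 0.0407, limma). The first call was lost without control replicates 2 or 3 or the arrays labelled Mig-6 d/d replicates 1 or 3, and the second without any array but the array labelled Mig-6 d/d replicate 2. By its suffix this probe set matches more than 1 transcript, and at another probe set of Rad23b the difference in Mig-6 d/d was 0.60 in log2 terms (adjusted p = 0.205, limma). With the mean over the probe sets of Rad23b it was 0.35 in Mig-6 d/d against control and -0.21 in the double knockout relative to Mig-6 d/d (adjusted p = 0.112 and 0.312, limma). Both calls were also lost with log2(intensity + 16) (adjusted p = 0.0513 and 0.0596, limma), the first with only the 6 arrays compared (0.0681) and the second with quantile normalization applied again (0.0505).

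Further assembly and regulator genes moved less. Of 8 measured genes for assembly and inhibition, 6 were higher in the arrays labelled Mig-6 d/d than in control, and none passed the test (limma). At an unadjusted p under 0.05, 1 of the 8 was higher, where 11.2% of all genes were (limma). Psmd10, an assembly chaperone of the base, read 92.4, 85.2 and 74.3 in the double knockout, 104, 143 and 103 in the arrays labelled Mig-6 d/d, and 94.9, 70.5 and 88.8 in control (0.46 in log2 terms in Mig-6 d/d against control, adjusted p = 0.159, limma). Psmf1, a proteasome regulator, read 65.8, 60.1 and 55.3 in the double knockout, 64.2, 52.0 and 68.3 in the arrays labelled Mig-6 d/d, and 55.3, 47.3 and 56.1 in control, and all 3 groups overlapped (log2 fold change 0.21, adjusted p = 0.444, limma).

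Among 7 measured regulators and ubiquitin-handling genes, 5 were higher in the arrays labelled Mig-6 d/d than in control and none passed the test (limma). At an unadjusted p under 0.05, 1 of the 7 was higher, where 11.2% of all genes were (limma). Nfe2l2, a transcription factor of the oxidative stress response, read 229.5, 222 and 255 in the double knockout, 359, 284 and 335 in the arrays labelled Mig-6 d/d, and 249, 202 and 246 in control. The arrays labelled Mig-6 d/d were above both other groups without overlap (log2 fold change 0.49 against control, adjusted p = 0.0622, and -0.46 in the double knockout relative to Mig-6 d/d, adjusted p = 0.0532, limma). These values without the array labelled Mig-6 d/d replicate 3 were 0.46 and -0.44 (adjusted p = 0.168 and 0.148, limma). Nfe2l1, the related factor that induces proteasome genes when the proteasome is inhibited, had a log2 fold change of -0.23 between Mig-6 d/d and control (adjusted p = 0.429, limma). Nploc4, a cofactor of the ATPase that extracts ubiquitin-tagged proteins, read 55.0, 50.8 and 49.5 in the double knockout, 49.9, 50.6 and 47.8 in the arrays labelled Mig-6 d/d, and 53.3, 38.0 and 37.8 in control, where all 3 groups overlapped (0.22 in log2 terms in Mig-6 d/d against control, adjusted p = 0.45, limma).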

How the data were processed

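RNA of uteri was hybridised to 9 Affymetrix mouse genome arrays. The authors deposited linear intensities per probe set, from RMA (robust multi-array average, quantile normalized) in Bioconductor, with versions not given in the sources used here. Here log2 of the intensities was taken and fitted with limma 3.58.1 (lmFit and eBayes, R 4.3.3), with the 3 groups in 1 model, 3 comparisons and Benjamini-Hochberg adjustment over 45037 probe sets. Probe sets were named from the platform annotation: 34945 had 1 symbol, 932 had several and 9160 were unnamed here. Only probe sets with 1 symbol were used. The fit was tested on simulated data. The genes and lists were chosen with earlier results of these data known, so no list was tested. Named with values were genes past the test, the 2 highest and 2 lowest per comparison, the brightest, the dimmest and the cutting subunits, and of related lists those called or the 2 with the smallest p. Alternatives were other filters, normalizations, variance models, thresholds, tests, probe set choices and each array left out. Figures were drawn with matplotlib 3.10.9. Scanner files were not used here.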

Additional observations from a re-analysis of the deposited data

How the results depend on the processing

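Direction and size of the proteasome shift were steadier than the calls of single genes. Part of this was fixed in advance. The filter on dim probe sets, the use of only the 6 arrays compared and the replicate number as a block leave the group means as they were, but can change an adjusted p. Over 14 alternatives for each comparison, the median log2 fold change of the 35 genes was 0.19 to 0.29 in Mig-6 d/d against control, -0.01 to 0.08 in the double knockout against control and -0.26 to -0.14 in the double knockout relative to Mig-6 d/d. The number of higher genes was 32 to 34 in Mig-6 d/d against control and 16 to 26 in the double knockout against control. In the double knockout relative to Mig-6 d/d it was 2 to 5, and the 5 came from averaging a gene's probe sets. For Mig-6 d/d against control, the count past the test and 1.5-fold was 1, and it was 3 with each array centred on its median and 4 with no fold limit. It was 0 with a trended and robust variance, with only the 6 arrays compared, with a t-test after Benjamini-Hochberg adjustment, with the mean over probe sets and with log2(intensity + 16), and 0 to 1 on leaving out single arrays. The count at an adjusted p under 0.05 in limma was 4, against 1 with only the 6 arrays compared, 2 with log2(intensity + 16) and 0 to 5 on leaving out single arrays, with 0 without the array labelled Mig-6 d/d replicate 3. For the double knockout relative to Mig-6 d/d, no gene passed the test with 1.5-fold, 4 with no fold limit and 0 to 1 on leaving out single arrays. At an adjusted p under 0.05 the count was 4, against 7 with array weights and 0 to 1 on leaving out single arrays. In the double knockout against control, the count past the test and 1.5-fold was 0 under all 20 alternatives, other thresholds included, and the count at an adjusted p under 0.05 was 0 under all 16. Some of these settings use fewer arrays, and the cause of the changes was not tested.

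Replicate numbers are shared between the groups. The correlation of same-numbered arrays' deviations was -0.13 to 0.20. Differently numbered arrays were not compared, so these values cannot tell whether the numbers pair the arrays. With the replicate number as a block, 1 gene passed the test with 1.5-fold and 4 at an adjusted p under 0.05 in Mig-6 d/d against control, and 0 and 3 in the double knockout relative to Mig-6 d/d. Over 63 results for named genes and 1008 values, 901 stayed on their side of the threshold, 88 lost a call, 19 gained one and 0 called values changed sign. Most of the 63 results had not passed the test in the main fit, so that they could only gain a call. The 88 losses all fell on the results that had passed it, and the 901 is therefore no measure of how steady those calls were.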

Other observations

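Besides the 13 bright probe sets, 5 unused probe sets of the 35 genes had a mean intensity between 16 and 100, and they did not run alike. A probe set of Psmd6 with a mean of 63.7 differed by 0.57 in log2 terms in the double knockout relative to Mig-6 d/d and 0.61 against control, where the brighter probe set of Psmd6 had -0.15 and -0.02. A probe set of Psme4, the gene of another activator of the core, had a mean of 52.3 and log2 fold changes of -0.61 in the double knockout relative to Mig-6 d/d and 0.46 in Mig-6 d/d against control, where the probe set used above had -0.21 and 0.10. The first of these 4 values was past the test and the limit of 1.5-fold (adjusted p = 0.0176, limma). In Psmc6, a base ATPase, a probe set with a mean of 19.7 had 0.46 in Mig-6 d/d against control, where the brightest one had 0.19. These probe sets were picked after their values had been seen.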
